A study of Mus musculus with 8 samples.

Results

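The genes described here are 10 that natural killer (NK) cells and cytotoxic T cells are known for: the granzyme genes Gzma, Gzmb and Gzmc, the pore-forming protein gene Prf1, the granule membrane protein gene Nkg7, the receptor genes Klrd1 and Klrk1, and the transcription regulator genes Tbx21, Id2 and Zbtb16. They were chosen by name, with earlier results of these arrays known, out of 20125 genes that the array names, and they were read by 11 non-control probes, 1 for each gene except Nkg7, which had 2. Because the choice was made with the values in view, the differences of these 10 genes between groups are given as descriptions, and calls are counted over the 10 genes once, beside the share of all genes called. The question was whether Lmo2, which encodes an adaptor protein of blood progenitors that bridges DNA-binding factors, goes with higher levels of such genes.

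Gene expression was measured on 8 one-colour Agilent whole mouse genome arrays, 2 in each of 4 groups. All cells were Ebf1-deficient pro-B lines, which lack a factor that B-cell progenitors need to go on in the B lineage, derived from E14.5 fetal liver and grown with SCF, Flt3L and IL-7. The pro-B(+) line, kept on OP9 stroma, is able to enter the T lineage, the pro-B(-) line, kept on TD7 thymic stroma, is not, pro-B(-)/Mock is the pro-B(-) line carrying an empty vector, and pro-B(-)/LMO2 is the same line carrying mouse Lmo2. The vector, per the study's methods, was a lentiviral one whose transcript also encodes rat CD2. Each group is 1 line or 1 transduced derivative, and the stroma under the transduced cells at harvest is not given in the sources used here. The study calls its comparison of the parental lines one of independent biological replicates, while the labels do not say whether the 2 samples of a transduced group were separate cultures, so for those groups the spread between arrays may be technical.

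Cytotoxic lymphocytes kill by releasing granules: perforin opens the target's membrane and granzymes, which are serine proteases, enter and cut proteins inside. NK cells choose targets through lectin-like receptors, many of them encoded side by side in the NK gene complex, and CD94, the product of Klrd1, pairs with NKG2 proteins to make several of these. T-bet (Tbx21), Id2 and PLZF (Zbtb16) are regulators of NK cells, of innate lymphoid cells as a whole, and of innate-like lymphocytes and innate lymphoid progenitors. Id2 binds E proteins and keeps them from DNA, and E proteins are partners in the complexes that LMO2 bridges.

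The start-site windows of granule genes are shown because Runx, ETS and T-box factors are known to act at granule genes in cytotoxic cells, and complexes with LMO2 are known to sit at E-box and GATA sites. Each window runs from 250 bases before to 50 bases after the start of the gene in the RefSeq table of build GRCm38.p6, is read 5′ to 3′ on the gene's strand, and carries in capitals the matches, on either strand, to the E-box word CAGATG, its variant CAGCTG, its other variant CAGGTG, the GATA word AGATAA, the Runx word TGTGGT, the ETS word CAGGAAG and the T-box word AGGTGTGA. The table gave a window for 8 of the 10 genes.
Gzma, chr13:113100932-113101231, minus strand: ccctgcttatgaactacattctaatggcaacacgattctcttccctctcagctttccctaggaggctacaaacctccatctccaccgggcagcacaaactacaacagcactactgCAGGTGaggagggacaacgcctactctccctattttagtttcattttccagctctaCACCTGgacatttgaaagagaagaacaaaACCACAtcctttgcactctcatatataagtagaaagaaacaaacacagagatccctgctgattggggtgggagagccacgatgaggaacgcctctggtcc
Gzmb, chr14:56262285-56262584, minus strand: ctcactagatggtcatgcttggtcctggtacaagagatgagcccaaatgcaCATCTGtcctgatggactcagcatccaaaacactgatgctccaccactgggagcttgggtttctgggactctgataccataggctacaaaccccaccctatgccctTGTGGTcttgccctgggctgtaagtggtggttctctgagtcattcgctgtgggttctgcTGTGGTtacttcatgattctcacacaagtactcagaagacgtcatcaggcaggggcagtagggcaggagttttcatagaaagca
Nkg7, chr7:43436888-43437187, plus strand: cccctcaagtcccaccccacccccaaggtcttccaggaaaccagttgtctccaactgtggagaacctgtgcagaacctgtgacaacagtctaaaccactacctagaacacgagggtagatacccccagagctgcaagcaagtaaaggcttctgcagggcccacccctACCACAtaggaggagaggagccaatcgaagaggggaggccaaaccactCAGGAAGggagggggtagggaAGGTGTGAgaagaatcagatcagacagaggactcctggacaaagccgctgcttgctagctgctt
Prf1, chr10:61297586-61297885, plus strand: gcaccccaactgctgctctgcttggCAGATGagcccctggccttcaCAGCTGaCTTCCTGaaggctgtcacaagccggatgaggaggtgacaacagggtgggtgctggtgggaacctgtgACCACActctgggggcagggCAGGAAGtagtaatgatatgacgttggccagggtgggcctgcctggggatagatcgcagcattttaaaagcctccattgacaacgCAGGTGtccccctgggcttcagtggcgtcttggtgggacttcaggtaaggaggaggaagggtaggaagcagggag
The Gzma window held CAGGTG at 2 places, read on opposite strands, and 1 Runx word. The Gzmb window held 2 Runx words and 1 CAGATG, the Nkg7 window held 1 Runx, 1 ETS and the T-box word, and the Prf1 window held all 3 E-box words, 1 Runx word and 2 ETS words. The words do not contain one another, although CAGGTG and the T-box word can share letters where they meet. Over the 8 windows the Runx word was in 6, the ETS word in 4, the E-boxes CAGGTG in 3, with CAGCTG in 3 and with CAGATG in 2, the T-box word in 1 and the GATA word in 0. Of all 32851 windows of the same length, 16.8% held the Runx word, 13.3% the ETS word, 20.2% CAGGTG, 16.3% CAGCTG, 17.2% CAGATG, 1.28% the T-box word and 11.2% the GATA word. These are matches of letters, and binding was not measured on these arrays.

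All levels below are log2 intensities relative to the 75th percentile of the array, so that probes above 0 are the brightest on the array and each step of 1 is a factor of 2 in intensity. A probe that the scanner software did not mark as well above background in a group has only a ceiling there, and the brighter group is then given as at least so many fold higher, against the array's lowest signal that was well above background or the probe's own signal, whichever is higher. Of the 10 genes, 6 were well above background on all 8 arrays, and Klrk1 was not so on any. Differences between pro-B(-)/LMO2 and pro-B(-)/Mock and between pro-B(+) and pro-B(-) lie within a slide. For pro-B(-)/Mock or pro-B(-)/LMO2 against either parental line, slide and group cannot be told apart. The 2 arrays of a group share a slide, so the difference between them does not measure a slide effect.

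As a check of the labels, the Lmo2 probe was 1.53-fold higher in pro-B(-)/LMO2 than in pro-B(-)/Mock (limma, adjusted p = 3.8e-05) and 2.76-fold above pro-B(-) in pro-B(+) (limma, adjusted p = 2e-06). Its group means were 2.10 in pro-B(+), 0.96 in pro-B(-)/LMO2, 0.63 in pro-B(-) and 0.35 in pro-B(-)/Mock. Across slides, pro-B(-)/LMO2 thus read below pro-B(+), and pro-B(-)/Mock was 1.21-fold below pro-B(-). Whether this probe lies inside the transferred Lmo2 sequence is not given in the sources used here.

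Granzyme A, a protease of cytotoxic granules, was 4.03-fold higher with Lmo2 and 10.6-fold above pro-B(-) in pro-B(+). Gzma read 1.11 on both pro-B(+) arrays, 0.64 and 0.62 in pro-B(-)/LMO2, -1.39 and -1.36 in pro-B(-)/Mock, and -2.24 and -2.34 in pro-B(-). No group overlapped another, and every step in this order was wider than 0.10, the largest difference between 2 arrays of a group. The steps from pro-B(+) to pro-B(-)/LMO2 and from pro-B(-)/Mock to pro-B(-) cross slides, which that difference does not measure. The pro-B(-)/LMO2 arrays stood next to pro-B(+) and above both other groups, and pro-B(-)/Mock was 1.88-fold above the parent line on the other slide.

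Granzyme B, the granzyme that cuts caspases, was a dim probe. Gzmb read -3.65 and -3.51 in pro-B(+) and -5.15 and -5.12 in pro-B(-)/LMO2, and it was not well above background on any pro-B(-)/Mock or pro-B(-) array. Its level was at least 1.95-fold higher with Lmo2 and at least 4.67-fold above pro-B(-) in pro-B(+).

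Gzmc, a granzyme gene next to Gzmb, was brightest in pro-B(+) by a wide step. Its levels were -1.90 and -1.97 in pro-B(+), -4.92 and -4.60 in pro-B(-)/LMO2, and -5.04 and -4.97 in pro-B(-), and it was not well above background in pro-B(-)/Mock. It was 8.43-fold above pro-B(-) in pro-B(+) and at least 2.52-fold above the empty vector with Lmo2. The pro-B(-)/LMO2 arrays lay next to those of the untransduced pro-B(-) line, from which they differed by 0.25 on the log2 scale across slides, and pro-B(-)/Mock was at least 2.13-fold below that line. The difference with Lmo2 is one over an empty-vector control in which the probe was dimmer than in the parent. For the dim probes Gzmb and Gzmc, a background correction that adds an offset of 50 to every intensity gave smaller ratios in pro-B(-)/LMO2 over pro-B(-)/Mock, 1.44-fold for each, in the same direction.

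The 3 genes do not stand for the granzymes as a whole. Gzmb and Gzmc close a run of 8 neighbouring protein-coding genes on chromosome 14 that opens with Ctsg, the neutrophil protease cathepsin G, and goes on through Gzme, Gzmd, Gzmg, Gzmn and Gzmf. Along that run, Gzmd, Gzmf, Gzmg and Gzmn were not well above background on any array. Gzme was not above background in either parental line, while its means were -4.14 in pro-B(-)/Mock and -2.25 in pro-B(-)/LMO2, 3.73-fold higher with Lmo2 (limma, adjusted p = 0.00032), and a second Gzme probe was 4.63-fold higher. Ctsg went the other way from Gzmb and Gzmc with Lmo2: its mean was -4.88 in pro-B(-)/Mock, it was not well above background in pro-B(-)/LMO2, and it was highest, at -1.43, in pro-B(+). Outside the run, Gzmm differed by 0.07 with Lmo2 (limma, adjusted p = 0.579) and by -0.03 in pro-B(+) (limma, adjusted p = 0.814). Gzmk differed by 0.08 with Lmo2 (limma, adjusted p = 0.423) and was 1.27-fold lower in pro-B(+) (limma, adjusted p = 0.0151), a call that was lost without pro-B(+) replicate 1 (adjusted p = 0.075) or without pro-B(-) replicate 1 (adjusted p = 0.0692). Granzyme genes are near copies of each other, and how far their probes read one another's transcripts was not tested.

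Perforin did not move with the granzymes. Prf1 read -1.67 on both pro-B(-)/Mock arrays, -2.36 and -2.58 in pro-B(-), -2.65 and -2.70 in pro-B(-)/LMO2, and -2.94 and -2.95 in pro-B(+). It was 2.01-fold below the empty vector with Lmo2 and 1.39-fold below pro-B(-) in pro-B(+). The gap between pro-B(-) and pro-B(-)/LMO2, 0.07, was smaller than 0.21, the largest difference between 2 arrays of a group. The empty-vector control stood 1.74-fold above the parent line. Both of these lie across slides, so whether Prf1 with Lmo2 differed from the parent line cannot be told. The low value with Lmo2 is low against the empty-vector control on the same slide.

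Nkg7, a membrane protein of cytotoxic granules needed for their release, was highest in pro-B(-)/LMO2 by both probes. The brighter probe read 3.36 and 3.31 in pro-B(-)/LMO2, 1.89 and 1.86 in pro-B(+), 0.77 on both pro-B(-)/Mock arrays, and 0.46 and 0.47 in pro-B(-). It was 5.92-fold higher with Lmo2 and 2.66-fold higher in pro-B(+), and the dimmer probe gave 9.39-fold and 4.41-fold, with the 4 groups in the same order. No arrays of different groups overlapped on either probe, although each step between neighbouring groups in that order crosses slides.

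**Figure D1:**
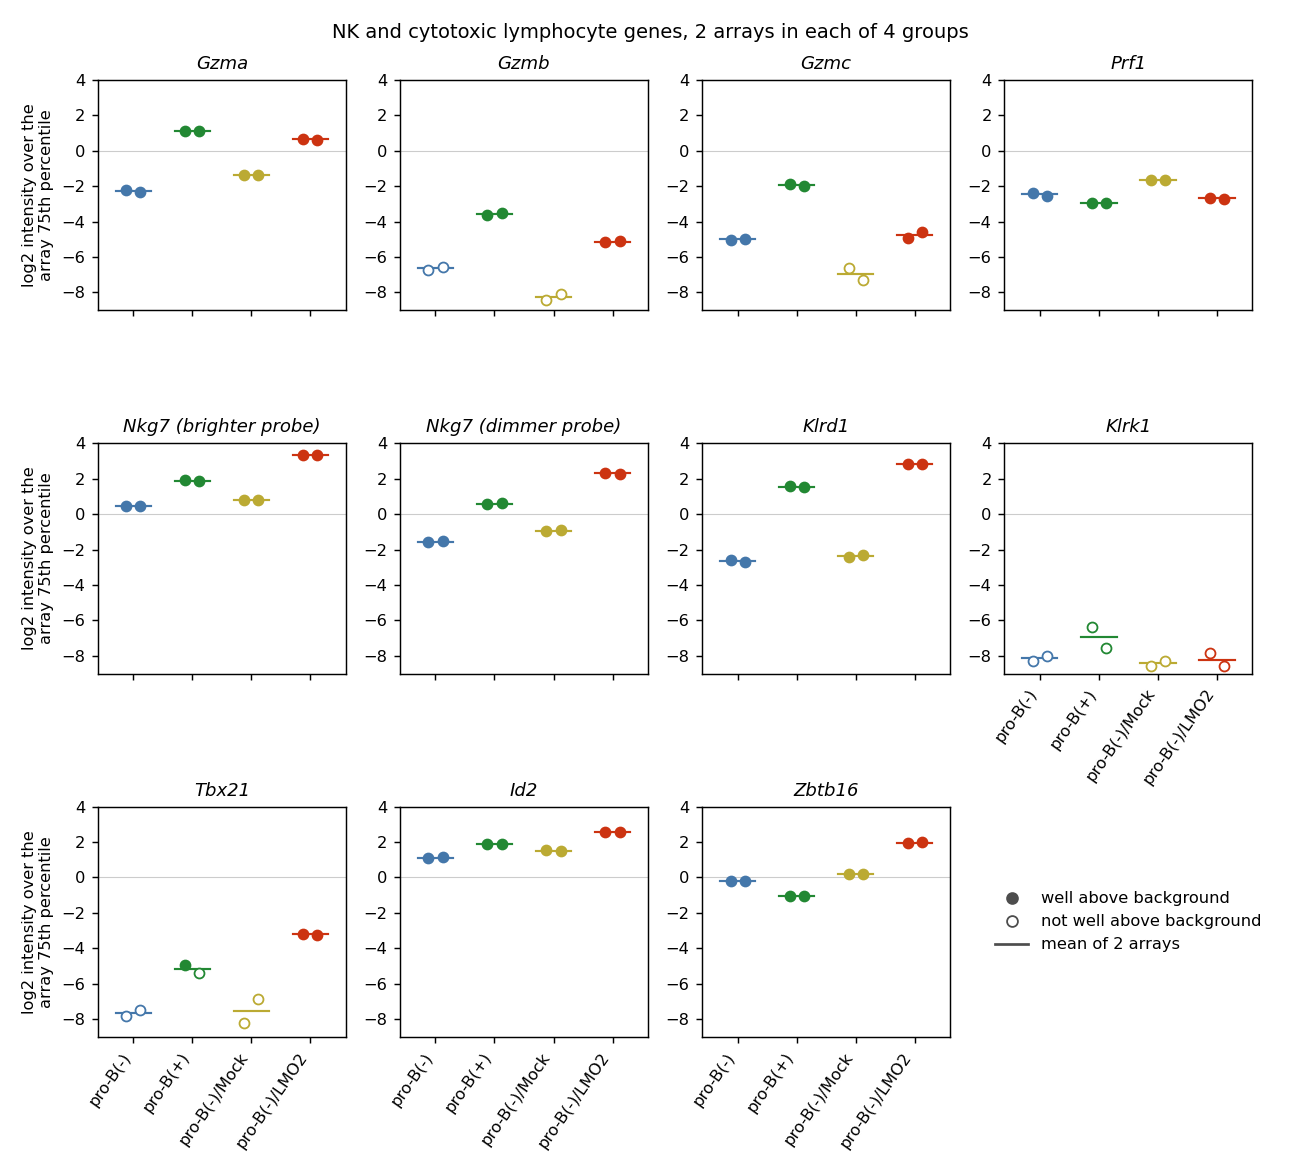
Log2 intensity over the array's 75th percentile (vertical axis) of each of the 11 probes on the 2 arrays of each group (horizontal axis). Filled points were well above background and open points were not; lines are means of 2 arrays. Klrd1, Nkg7, Id2, Zbtb16 and Tbx21 are highest in pro-B(-)/LMO2, the 3 granzymes in pro-B(+), and Prf1 in pro-B(-)/Mock.

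Klrd1 differed most between groups among the 6 genes measured on all arrays. Klrd1 read 2.82 and 2.85 in pro-B(-)/LMO2 and 1.56 and 1.51 in pro-B(+), against -2.39 and -2.28 in pro-B(-)/Mock and -2.60 and -2.72 in pro-B(-). It was 36.1-fold higher with Lmo2 and 18.3-fold above pro-B(-) in pro-B(+), while pro-B(-)/Mock stood 1.25-fold above pro-B(-) across slides. The pro-B(-)/LMO2 arrays stood above pro-B(+) as well, a step that also crosses slides. Klrk1, which encodes the activating receptor NKG2D, was not well above background on any of the 8 arrays, with readings from -8.56 to -6.37, so no level or difference is given for it. Klrc1, the gene of NKG2A, an inhibitory partner of CD94, was not well above background on any array either.

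Among the regulators, Tbx21 was well above background on both pro-B(-)/LMO2 arrays, at -3.19 and -3.22, and on 1 of the 2 pro-B(+) arrays, whose readings were -4.93 and -5.39. It was not so on any pro-B(-)/Mock or pro-B(-) array. T-bet transcript was at least 7.43-fold higher with Lmo2, or 2.09-fold with the offset of 50, and no difference is given for pro-B(+) against pro-B(-).

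Id2 was bright in all 4 groups and moved least of the genes that were measured throughout, apart from Prf1. Its levels were 2.56 on both pro-B(-)/LMO2 arrays, 1.88 and 1.91 in pro-B(+), 1.57 and 1.47 in pro-B(-)/Mock, and 1.09 and 1.14 in pro-B(-). It was 2.06-fold higher with Lmo2 and 1.72-fold higher in pro-B(+). No groups overlapped, although each step between neighbouring groups crosses slides.

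Zbtb16 was the member whose differences in these 2 comparisons ran in opposite directions. It read 1.95 and 1.99 in pro-B(-)/LMO2, 0.22 on both pro-B(-)/Mock arrays, -0.22 and -0.18 in pro-B(-), and -1.02 and -1.07 in pro-B(+). It was 3.36-fold higher with Lmo2 and 1.79-fold below pro-B(-) in pro-B(+). Of all groups, pro-B(-)/LMO2 was the highest and pro-B(+) the lowest, an order that crosses slides.

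**Figure D2:**
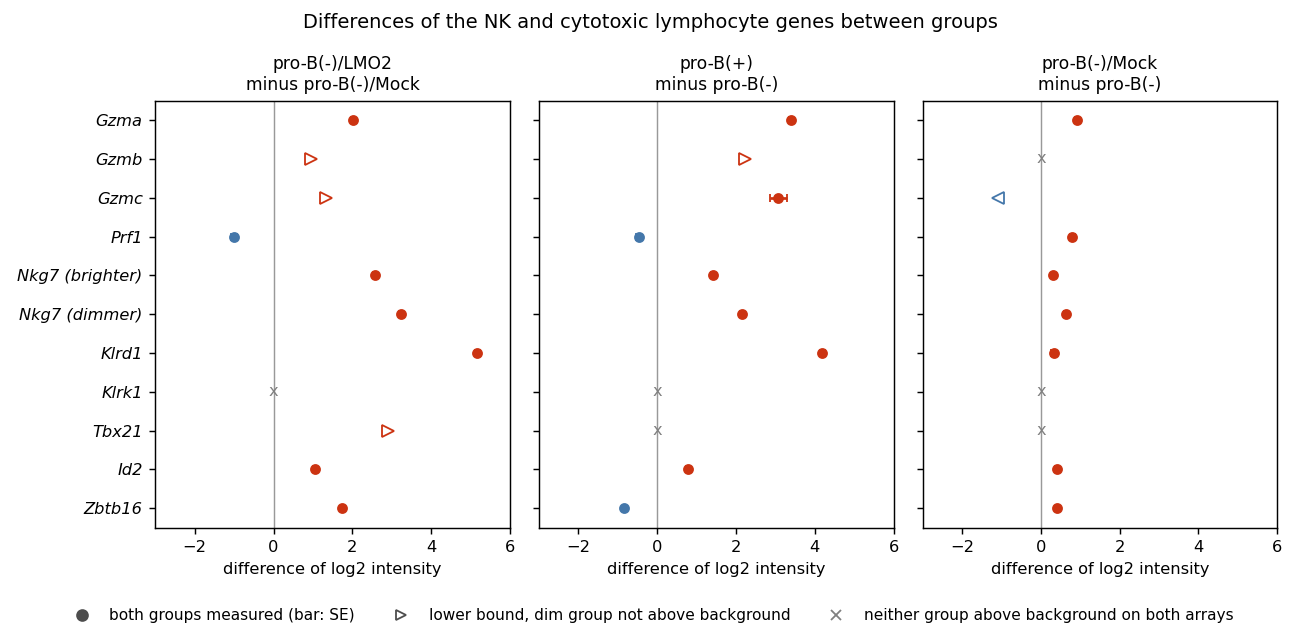
Difference of mean log2 intensity (horizontal axis) for each probe (vertical axis) in 3 comparisons. Circles have both groups measured, with a bar for the standard error of the fit, mostly narrower than the circle; triangles are lower bounds, and crosses had neither group above background on both arrays. Klrd1 lies far right in both left-hand panels, Prf1 left of 0 in both, and Zbtb16 on opposite sides.

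Most of these genes stood higher both with Lmo2 and in pro-B(+), but so many genes differ between these lines that the count alone says little. With Lmo2, 9 members passed the filter on dim probes, and 8 of them were called higher and 1 lower at an adjusted p of 0.05 from limma. Of the 12924 genes tested, 31.1% were called higher and 37.8% lower. In pro-B(+) against pro-B(-), 8 passed, 6 higher and 2 lower, beside 25.7% called higher and 27.1% lower of all 13218 genes tested. In pro-B(-)/Mock against pro-B(-), 7 passed, 6 higher and 1 lower, beside 30.9% higher and 29.9% lower of all 12897 genes tested. A member that passes only because 1 group is bright has to differ, and these shares come from the same contrasts that the choice of members knew, so nothing is read from them. The share of lower calls depends on the scaling: when each array was set to its median in place of its 75th percentile, the median change of all probes moved from -0.04 to -0.25 with Lmo2 and from -0.04 to -0.33 in pro-B(+). The split of probes called then went from 6534 higher (28.4% of probes tested) and 8373 lower (36.4%) to 4055 and 12448 with Lmo2. In pro-B(+) it went from 4884 higher (20.8%) and 6665 lower (28.4%) to 2949 and 15643. In these bulk samples, more RNA per cell and more cells that express a gene cannot be told apart.

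The other genes of the pathway were taken from lists of granzymes, granule machinery and death ligands, NK receptors and adaptors, regulators, cytokine receptors and cytokines, and the remaining killer cell lectin-like receptors, 107 genes on the array with the 10 members left out. With Lmo2, 53 of the 69 that could be tested were higher and 5 lower, beside 31.1% and 37.8% of all genes tested, with a median log2 difference of 0.79 against -0.03 over all genes. In pro-B(+), 44 of 72 were higher and 16 lower, beside 25.7% and 27.1%, with a median of 0.47 against -0.01. The counts under the median scaling were 47 and 9 with Lmo2 and 35 and 21 in pro-B(+). Both medians stayed at these values with genes not measured in 1 group set at their bound. The filter on dim probes lets a gene in through the group where it is bright, so the counts were also taken over genes measured on both arrays of the comparison's second group. There, 40 of 56 pathway genes were higher and 5 lower with Lmo2, beside 29.4% higher and 39.2% lower of all genes so measured. In pro-B(+), 26 of 52 were higher and 16 lower, beside 22.1% and 29.1%. The list was chosen with earlier results of these arrays known, and no test of the list as a whole was made. Where a difference below is given as at least so many fold, the filter fixed its direction, so no adjusted p is printed with it.

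Granule machinery and death ligands rose with Lmo2 in 13 of 15 genes, beside 31.1% of all genes tested, and 11 of the 13 measured in pro-B(-)/Mock rose. Ctsc and Cst7 differed by 0.06 and -0.14 and were not called. Ctsw, a cysteine protease of cytotoxic cells, rose 3.32-fold (limma, adjusted p = 1.6e-06). Lyst, which governs the size of lysosome-related granules, rose 2.55-fold (limma, adjusted p = 3e-05), and Serpinb9, which shields cells from granzyme B, rose 1.73-fold (limma, adjusted p = 3.7e-05). The death ligand gene Fasl, not well above background in the other 3 groups, rose at least 11.4-fold. Ifng, the cytokine that NK cells are known for, rose at least 9.54-fold with Lmo2 and at least 2.28-fold in pro-B(+). In pro-B(+), 9 of 14 granule genes rose and 3 fell, beside 25.7% and 27.1% of all genes tested. Of the 13 measured in pro-B(-), 8 rose and 3 fell. Srgn, the proteoglycan that packs granule contents, fell 1.37-fold (limma, adjusted p = 0.00085), against a rise of 1.48-fold with Lmo2, and Cst7 and Tnfsf10 also fell.

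NK receptors and their adaptors rose with Lmo2 in 11 of 12 genes tested, beside 31.1% of all genes tested, and the activation marker Cd69 fell. Of the 11 measured in pro-B(-)/Mock, 10 rose. Cd7 rose 56.2-fold with Lmo2 and 16.7-fold in pro-B(+) (limma, adjusted p = 2.4e-07 for the second). Cd96 rose 16.5-fold with Lmo2 (limma, adjusted p = 5.9e-07), and Cd160 rose at least 8.26-fold. Tyrobp (DAP12) and Hcst (DAP10), which carry the signals of activating receptors, rose 2.34-fold and 2.3-fold with Lmo2 and 1.43-fold and 2.51-fold in pro-B(+). Ncr1, which encodes the NK receptor NKp46, and Itga2, which encodes the integrin CD49b, were not well above background on any of the 8 arrays. In pro-B(+), 9 of 14 rose and 4 fell, beside 25.7% and 27.1% of all genes tested. Of the 11 measured in pro-B(-), 6 rose and 4 fell. Tigit fell at least 2.51-fold but rose 1.27-fold with Lmo2 (limma, adjusted p = 0.0037). That rise was not called under the median scaling (adjusted p = 0.121) or quantile normalization (adjusted p = 0.115). Across slides, pro-B(-)/Mock stood 2.2-fold above pro-B(-) for Cd7 and 4.42-fold for Tigit. There 4 of 11 receptor and adaptor genes were called higher and 5 lower, beside 30.9% and 29.9% of all genes tested.

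The lectin-like receptor family apart from Klrd1 and Klrk1 had 24 genes on the array, and 13 of them could be tested in 1 or more of the fitted comparisons. With Lmo2, 8 could be tested, of which 7 rose, beside 31.1% of all genes tested, and Klra1 was not called. Klra2, Klrb1, Klrb1a, Klrb1b and Klri2 passed the filter through pro-B(-)/LMO2 alone, and of the 3 genes measured in pro-B(-)/Mock, Klrb1c and Klrb1f rose. Klri2 rose at least 17.7-fold with Lmo2 and at least 11-fold in pro-B(+), from readings not above background in the 2 control groups. The Klrb1 genes encode NKR-P1 receptors. With Lmo2, Klrb1b read at least 15.4-fold higher, Klrb1a at least 6.22-fold and Klrb1 at least 3.26-fold, each with its direction fixed by the filter. Measured in both groups, Klrb1c, the gene of the NK1.1 antigen, rose 3.06-fold (limma, adjusted p = 0.0012) and Klrb1f 1.38-fold (limma, adjusted p = 0.00014). For Klrb1c, a second probe was not well above background on any array. A second Klrb1b probe rose at least 6.98-fold, while another was well above background on only 1 array, in pro-B(-)/LMO2.

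In pro-B(+), 11 lectin-like receptor genes could be tested, of which 7 rose and 2 fell, beside 25.7% and 27.1% of all genes tested. All 7 that rose passed the filter through pro-B(+) alone, and of the 3 measured in pro-B(-), Klra1 and Klrb1f fell and Klrg2 was not called. Klrb1a, Klrb1b and Klrb1c rose at least 3.3-fold, 3.81-fold and 3.49-fold there, and Klrb1f fell 1.53-fold (limma, adjusted p = 7.7e-05). The Ly49 genes differed between the 2 comparisons in which of them were detected: Klra4, Klra9 and Klra16 were well above background in pro-B(+) alone, and the call of Klra16 was lost without any 1 of the 4 arrays (adjusted p from 0.0501 to 0.0635). Klra2 was so in pro-B(-)/LMO2 alone, where it rose at least 2.08-fold. Klra1 differed by -0.04 with Lmo2 (limma, adjusted p = 0.754) and fell 1.69-fold in pro-B(+) (limma, adjusted p = 0.0018). Klra7 and Klrg2 were tested in pro-B(+) and were not called, and Klre1 was above background on 1 array each in pro-B(+) and pro-B(-)/LMO2. Klra8 was above background on 1 pro-B(+) array, and the probes standing for Klra5, Klra6, Klra10, Klra17, Klrc1, Klrc3, Klrg1, Klrh1 and Klri1 on none. A second Klrc3 probe was above background on 1 pro-B(+) array. Genes of this family are near copies too, and several probes of 1 Ly49 gene disagreed: a second Klra17 probe was higher by at least 1.96-fold in pro-B(+), where the brightest one was not above background.

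**Figure D3:**
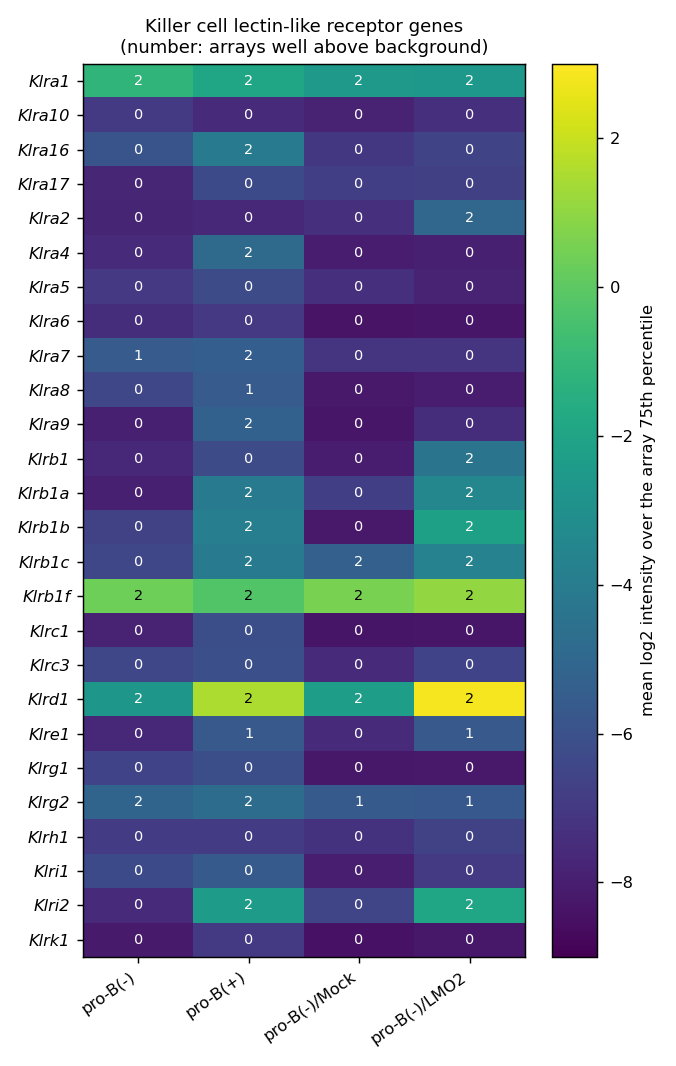
Mean log2 intensity over the array's 75th percentile (colour) of 26 killer cell lectin-like receptor genes (rows) in the 4 groups (columns), with the number of arrays out of 2 on which the probe was well above background. Klri2, Klrb1a and Klrb1b are read in pro-B(+) and pro-B(-)/LMO2 only.

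Among NK and innate lymphoid regulators, 13 of 18 tested rose with Lmo2 and 3 fell, beside 31.1% and 37.8% of all genes tested. Of the 14 measured in pro-B(-)/Mock, 9 rose and 3 fell. Tcf7 and Lef1, a pair of related factors that early T-cell and innate lymphoid progenitors use, rose at least 238-fold and at least 26.1-fold. A second Tcf7 probe rose at least 40.1-fold. Nfil3, which NK progenitors need, rose 3.59-fold (limma, adjusted p = 2.9e-06), Tox rose 2.13-fold (limma, adjusted p = 3.1e-06) and Runx3 rose 2.03-fold (limma, adjusted p = 2.4e-05). The empty vector itself stood above pro-B(-) across slides, 2.36-fold for Nfil3 and 2.19-fold for Tox, while Runx3 was not called there. The T-lineage factor gene Bcl11b fell 8.54-fold (limma, adjusted p = 3.2e-05), Zeb2 fell 1.46-fold and Ets1 fell 1.35-fold. Eomes, the T-box partner of T-bet in NK cells, was well above background in pro-B(+) alone, at least 2.84-fold above pro-B(-). A second Eomes probe was not above background on any array.

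In pro-B(+), 14 of 19 regulators rose and 3 fell, beside 25.7% and 27.1% of all genes tested. Of the 13 measured in pro-B(-), 9 rose and 3 fell. Tcf7 rose at least 7.54-fold and Nfil3 1.55-fold (limma, adjusted p = 0.00021 for Nfil3), while Tox fell 1.18-fold (limma, adjusted p = 0.0014). Id3, which acts on E proteins as Id2 does, had group means of 0.66 in pro-B(+), -0.75 in pro-B(-)/LMO2, -0.96 in pro-B(-)/Mock and -2.27 in pro-B(-). It rose 7.66-fold in pro-B(+) and 1.15-fold with Lmo2, the reverse of the order seen for Id2, for which the larger difference came with Lmo2. Id3 is named here after its values were seen.

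The cytokine receptors were mixed. With Lmo2, 8 of 13 tested rose and 1, Il18rap, fell, beside 31.1% and 37.8% of all genes tested. Of the 12 measured in pro-B(-)/Mock, 7 rose and 1 fell. Il2ra (CD25), an early marker of T-lineage entry as well as an interleukin 2 receptor chain, rose at least 134-fold. Il2rb, counted above with the NK receptors, is the chain through which NK cells receive interleukin 15. It rose 4.87-fold with Lmo2 (limma, adjusted p = 4.1e-06) and 1.55-fold in pro-B(+) (limma, adjusted p = 0.00087). The empty-vector control stood 2.74-fold above pro-B(-) for Il2rb across slides. In pro-B(+), 5 of 12 cytokine receptor and cytokine genes rose and 3 fell, beside 25.7% and 27.1% of all genes tested. Of the 10 measured in pro-B(-), 3 rose and 3 fell. The interleukin 18 receptor genes Il18r1 and Il18rap fell 7.62-fold and 3.15-fold in pro-B(+) (limma, adjusted p = 4.6e-07 and 9.6e-07). With Lmo2, Il18r1 went the other way and rose 3.2-fold (limma, adjusted p = 2.1e-06), and its second probe rose 3.1-fold. Across slides, pro-B(-)/Mock stood 2.52-fold above pro-B(-) for Il18r1.

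**Figure D4:**
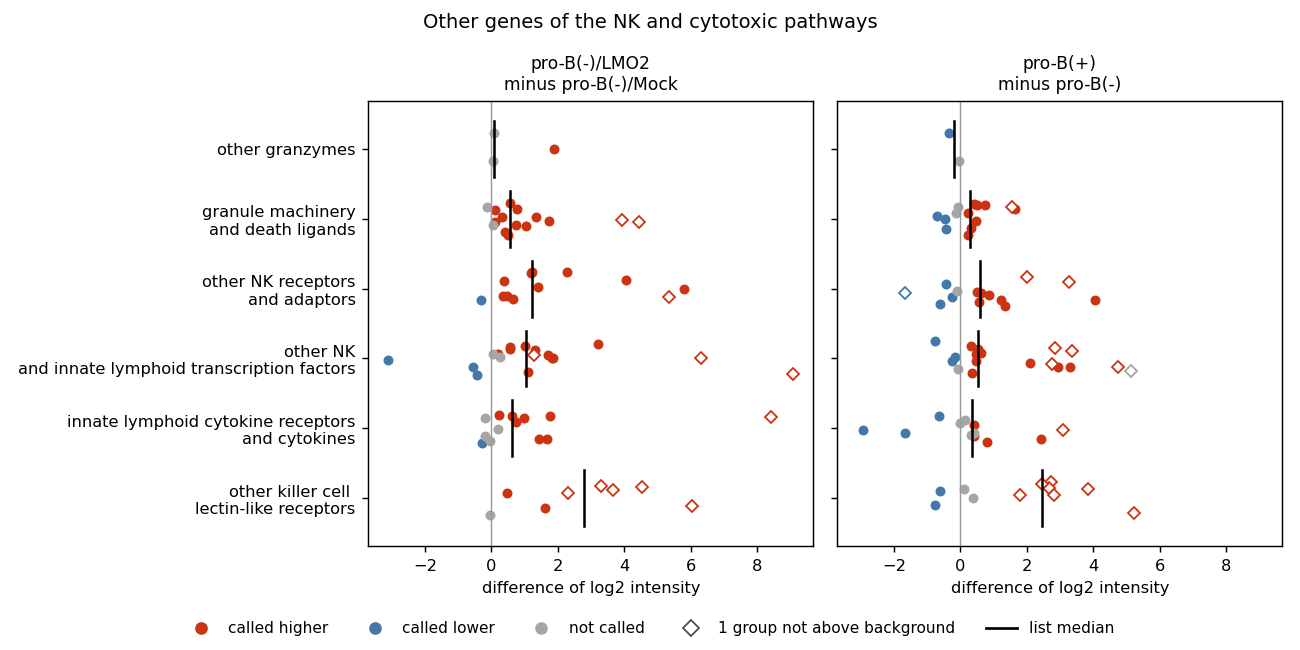
Difference of mean log2 intensity (horizontal axis) of the pathway genes that could be tested, by list (vertical axis), with Lmo2 on the left and in pro-B(+) on the right. Colour gives the call at an adjusted p of 0.05, open diamonds have 1 group not above background and a size that is no bound, and black bars are list medians. On the left 53 points are called higher and 5 lower, and on the right 44 and 16.

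The 2 effects were set against each other gene by gene by testing the difference with Lmo2 minus the difference in pro-B(+), which share no arrays. Of 78 pathway genes that could be tested, 41 had the larger value with Lmo2 and 16 the larger value in pro-B(+), beside 25.3% and 33.4% of all 13732 genes. The first included Cd96, Il2rb, Nfil3 and Tyrobp, with differences of 2.81, 1.65, 1.21 and 0.71 on the log2 scale. The second included Id3 and Zeb2, with differences of -2.73 and -1.08. Hcst and Gata3, at -0.13 and 0.11, were not called (limma, adjusted p = 0.2 and 0.35). Genes with differences given here were well above background on every array. A gene entered this test where any group had it well above background on both arrays. Fasl and Lef1, so measured in pro-B(-)/LMO2 alone, and Eomes, so measured in pro-B(+) alone, had their direction fixed by that. The counts of 41 and 16 include such genes and do not by themselves rank the 2 effects. With only genes well above background on all arrays compared, 36 were called in place of 57.

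The genes whose profile over the 8 arrays, centred on its mean, lay nearest to that of Klrd1 were Cd74, Il1r2, Cpa3, Il18 and Klri2, of 13731 genes measured in at least 1 group, at Euclidean distances of 0.48, 0.848, 0.865, 0.897 and 1.23. Cd74, the invariant chain of MHC class II, had group means of 3.87 in pro-B(-)/LMO2, 2.97 in pro-B(+), -0.89 in pro-B(-)/Mock and -1.36 in pro-B(-). Cpa3 is a mast cell protease that early progenitors also express. Nearness here means only that the values run alike over 8 arrays.

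Genes of other cell types also differed in the same comparisons. The counts of their markers stand beside 31.1% higher and 37.8% lower of all genes tested with Lmo2. In pro-B(+) these shares were 25.7% and 27.1%. The summed intensity of 12 neutrophil and monocyte markers, in units of the array's 75th percentile, was 51.9 to 52.3 in pro-B(+) and 21.7 to 23.1 in pro-B(-)/LMO2, against 6.14 to 6.78 in pro-B(-) and 6.72 to 7.11 in pro-B(-)/Mock. In pro-B(+), 11 of the 12 were higher than in pro-B(-), S100a9 at least 610-fold, while S100a8, S100a9 and Ltf were not well above background in pro-B(-)/LMO2. There 5 of 8 tested were higher than in pro-B(-)/Mock, Mpo, whose probe is the brightest part of that sum, by 20.9-fold and Lyz2 by at least 10.5-fold, while Elane and Itgam were not called. Of the dimmer Itgam probes, one was 1.78-fold higher with Lmo2 (limma, adjusted p = 2.5e-05) and the other was not called. Of 12 mast cell and basophil markers, 4 of 5 tested were higher with Lmo2, Cpa3 at least 12.1-fold, while Ms4a2 and Mcpt1 were not well above background in any group. The summed level of this list ran from 0.575 to 0.583 in pro-B(-) up to 1.06 to 1.08 in pro-B(-)/LMO2.

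Stromal markers summed to 12.3 to 13.0 in pro-B(+) and 12.6 to 13.4 in pro-B(-)/LMO2, against 9.48 to 9.58 in pro-B(-)/Mock and 4.8 to 4.93 in pro-B(-). Dcn and Lum were not well above background on any array, and Thbs1 was 4.49-fold higher with Lmo2. Of 14 T-cell markers, 6 were higher and 3 lower with Lmo2 among 11 tested, beside 31.1% and 37.8% of all genes tested. Cd3g was at least 4.59-fold higher, and Cd8b1 and Themis were not well above background in any group. Of 9 plasmacytoid dendritic cell markers, 5 were higher and 2 lower in each of the main comparisons. The shares of all genes tested in pro-B(+) were 25.7% and 27.1%. Ly6d was 6.84-fold and Irf7 5.54-fold higher with Lmo2, and Irf7 was 2.74-fold higher in pro-B(+). Probes of 1 gene disagreed in size. Siglech was not called by its brighter probe, but its dimmer one was 11.7-fold higher with Lmo2 and 3.36-fold in pro-B(+). Pacsin1 was 1.49-fold higher with Lmo2 by its brighter probe and 13.5-fold by its dimmer one. The sum of this list, which rests on bright probes such as those of Cox6a2 and Ccr9, was 115 to 120 in pro-B(+) and 149 to 169 in the other 3 groups. Of 12 B-cell markers, 4 were higher and 6 lower with Lmo2 among 10 tested, beside 31.1% and 37.8% of all genes tested. The part of these cell types in the levels of the granzymes, Nkg7, Klrd1 and the other genes was not tested.

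**Figure D5:**
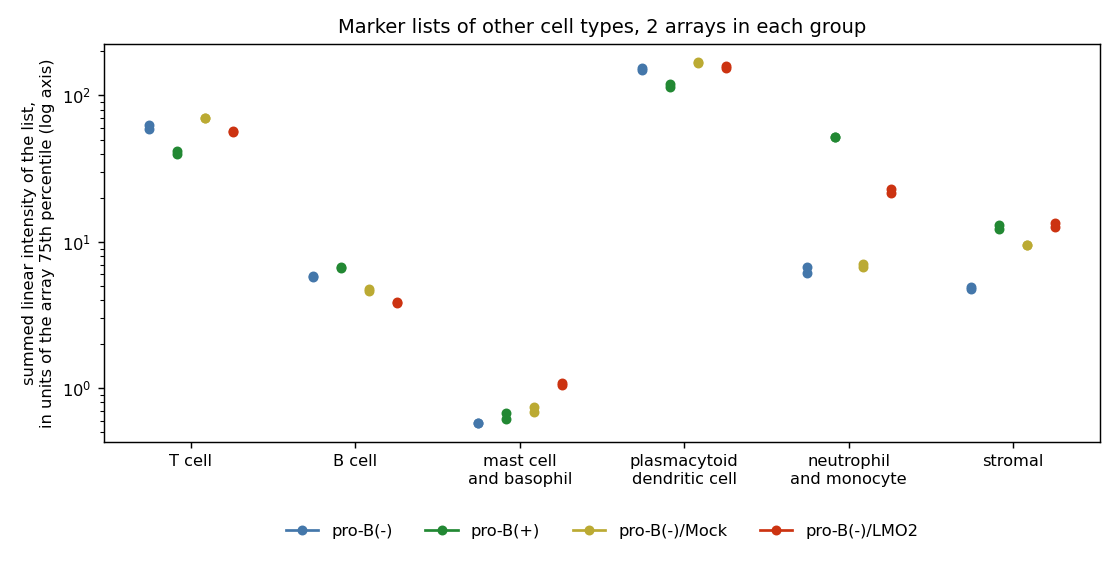
Summed linear intensity of 6 marker lists in units of the array's 75th percentile (vertical log axis), with a point for each array, by list (horizontal axis) and group (colour). The neutrophil and monocyte list is highest in pro-B(+), at 51.9 to 52.3, and next in pro-B(-)/LMO2, at 21.7 to 23.1.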

How the data were processed

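Total RNA of 8 samples, 2 in each of 4 groups, was labelled with Cy3 and hybridised to Agilent whole mouse genome arrays. The authors deposited scanner output of Feature Extraction, whose processed signal is a background-corrected intensity on a linear scale, with flags for signal well above background. They also deposited a matrix of log2 values, which they had normalized to the 75th percentile in GeneSpring and which matched the values computed here to within 0.01. Here the log2 processed intensity minus the array's 75th percentile was used, control spots were left out, spots of a probe were averaged and 51 probes with outlier flags were dropped. Probes were named by transcript accession through RefSeq (GRCm38.p6), which named 26550 of 39378 probes, or 20125 genes. A gene with several probes stands by the one brightest over all arrays.

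One limma model (version 3.58.1, R 4.3.3) was fitted to all 8 arrays with a mean for each of the 4 groups and 4 residual degrees of freedom. A probe entered a test where some group compared had it well above background on both of its arrays, with Benjamini-Hochberg adjustment over all probes tested and a threshold of 0.05. On each array, 56.5% to 61.2% of probes passed the background flag, no non-control probe was saturated, and the number of arrays limits the precision. Arrays of a group correlated at r = 0.9988 to 0.9991 over probes. The script was tested on simulated data.

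The members, the other gene lists and the marker lists were chosen with earlier results of these data known, including a look for NK and granzyme names in a list of changed genes that came with the study. All members are described with every probe. From the other lists, the text names the 3 called genes with the largest fitted difference in each direction and main comparison (where a group was not above background, a fitted difference is no bound, so this is no order of size), the granzymes and lectin-like receptors, Il2rb, Eomes, Nfil3, Tox, Ncr1, Tyrobp, Hcst and Ifng, and the 5 genes nearest in profile to the member of largest range. Others were named after their values were seen. Alternatives were median and quantile scaling, another background correction, other filters, the deposited matrix, fewer arrays, an intensity trend and a replicate block.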

Additional observations from a re-analysis of the deposited data

How the results depend on the processing

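The differences of the 10 genes that passed the filter in a comparison within a slide or of pro-B(-)/Mock against pro-B(-) kept their direction under all 16 or 17 alternatives run; the Gzmc difference across slides was not recomputed. For the genes measured in both groups, alternatives other than the background correction kept Klrd1 between 4.96 and 5.23 and Nkg7 between 2.36 and 2.68 on the log2 scale with Lmo2. Normexp correction of the median spot signal with an offset of 50, chosen after seeing the data because the files hold no mean spot signal (the planned correction on it was not run), shrank dim probes most: to 0.53 for Gzmb, 0.52 for Gzmc and 1.06 for Tbx21 with Lmo2. These are below the bounds given on the processed scale, so those bounds hold on that scale only.

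With median scaling, the parental comparison had 18592 probes called, where it had 11549 at the 75th percentile. With only genes well above background on all arrays compared, 36 pathway genes were called for the difference of the effects, where 57 were called with the main filter; fewer genes were tested. With 1 array left out, the lone array of its group is assumed to vary like the other groups. The probes called then ranged from 13089 to 14811 with Lmo2, from 8801 to 11195 in pro-B(+), and from 10970 to 13299 for pro-B(-)/Mock against pro-B(-). The pathway genes called ranged from 54 to 58, 55 to 62 and 37 to 42 in these comparisons, and from 49 to 58 for the difference of the effects. For that difference, Klra7 came to 1.14 without pro-B(-)/LMO2 replicate 2 and to -1.34 without replicate 1, Klrb1a to 0.22 and Klri2 to 0.17 with the normexp correction, against -0.10, -0.57 and -0.68; the cause was not tested. Of the other values of named pathway genes, 29 lost and 17 gained a call.

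Replicate numbers are shared by the groups, but arrays of the same number did not deviate together (correlations of replicate differences from -0.0272 to 0.0515 over 20376 probes), so the numbers do not pair the samples. With the replicate number as a block, 14687, 11296 and 13297 probes and 57, 58 and 40 pathway genes were called in the 3 comparisons, and 54 pathway genes for the difference of the effects; the block could not be shown to reflect shared cultures.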
